A study of Bos taurus with 129 samples.

Results

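The 10 genes described here encode the receptors through which oxytocin, oestrogen, progesterone and prostaglandins act on the uterus and the ovary: OXTR, ESR1, ESR2, PGR, PGRMC1, PGRMC2, PTGFR, PTGER2, PTGER3 and PTGER4. They were chosen by symbol and not by their values, though with earlier results of these data known. All 10 had a row among the 35158 genes of the tables of experiment 2 (E2). In the tables of experiment 1 (E1), 9 of the 10 were found by symbol among 24616 rows, and PTGFR was found by its description in a row that carries the symbol FP. RNA was sequenced on day 16 from the conceptus, endometrium, corpus luteum (CL) and peripheral blood mononuclear cells (PBMC) of Holstein cows whose pregnancies were labelled embryo mortality (EM), normal (N) or non-pregnant (NP). According to the study's methods, the cows of the conceptus work in E2 were lactating and multiparous, were synchronized by Ovsynch and inseminated at a fixed time with semen of the same sire, and their conceptuses were classed as EM or N by length, colour and translucency. An NP cow has no conceptus, so the conceptus tables hold EM and N only, and CL was sequenced in E2 only. E1 held 4 EM and 8 N conceptuses, 4 EM, 8 N and 7 NP endometria, and 3 EM, 7 N and 5 NP PBMC libraries. E2 held 6 EM and 9 N conceptuses, and 6 EM, 9 N and 7 NP libraries of each of the other tissues. The labels do not give the cow behind a library, so p-values measure the spread between libraries.

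Oxytocin from the pituitary and the CL binds OXTR, a receptor coupled to Gq, on the endometrium and drives the release of prostaglandin F2α, which binds PTGFR on luteal cells and ends progesterone production. During the luteal phase progesterone acts through PGR and is known to hold back ESR1 and OXTR in ruminant endometrium. Interferon tau from the elongating conceptus keeps the endometrium from raising OXTR, and in sheep also ESR1, and so spares the CL. ESR2 is the second nuclear oestrogen receptor, PGRMC1 and PGRMC2 are membrane proteins linked to progesterone signalling, PTGER2 and PTGER4 are prostaglandin E2 receptors that raise cyclic AMP, and PTGER3 is one that mostly lowers it. The comparisons asked how these receptors differ between tissues, and between EM, N and NP within a tissue.

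Levels are given as CPM, the counts of a gene scaled to the same total in every library, and differences as log2 fold changes with their standard error (SE) from edgeR's quasi-likelihood test. A gene was called where its p-value, adjusted by the Benjamini-Hochberg method over all genes tested, was under 0.05. Library totals ranged from 106785 to 14932407 counts in E1 and from 10532188 to 24482117 counts in E2. No pair of libraries of the same group agreed within sampling noise, and pairs across groups were not checked in this way. The 2 shallowest libraries were the E1 conceptuses EM S4 and EM S5. The labelled tissues carried their marker genes, with exceptions. In CL, 6 luteal steroidogenic and receptor genes summed to 29690 to 43700 CPM in 19 libraries, but to 13960 CPM in EM S112, 5636 CPM in EM S121 and 413 CPM in NP S109. The E1 PBMC library NP S47 had 52.7 CPM of 8 leukocyte genes, against a median of 2988 CPM in its group. The E2 endometrium EM S83 had 2013 CPM of these leukocyte genes, against 47.4 to 281.7 CPM in the other E2 endometria. In the EM conceptuses of E2, 9 trophectoderm genes summed to 128.1 to 27900 CPM, against 38780 to 61510 CPM in N conceptuses, and 7 endometrial epithelial genes summed to 2986 to 6597 CPM in EM, against 10.3 to 455.2 CPM in N. In endometrium, the smooth muscle genes DES, MYH11, ACTA2 and ACTG2 exceeded a sum of 2000 CPM in 4 of 19 libraries of E1 and in 8 of 22 of E2. The E1 sum held only 3 of these 4 genes, so the 2000 CPM line is not the same measure in both experiments. For some of the results that rest on such libraries, values without them are also given. In bulk RNA, fewer cells of a type and less RNA per cell cannot be told apart.

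Among N cows of E2 the receptors separated the tissues. OXTR, ESR1, ESR2 and PGR were highest in endometrium, PTGFR in CL and PTGER4 in PBMC. In endometrium minus CL 6 members were called higher and 3 lower, where 30.6% of 19378 genes were higher and 27.8% lower. The counts were 8 higher and 1 lower in endometrium minus PBMC (40.4% and 32.5% of genes), 7 higher and 2 lower in endometrium minus conceptus (50.6% and 35%), and 8 higher and 2 lower in CL minus PBMC (42.1% and 34%). They were 8 higher and 0 lower in CL minus conceptus (46.7% and 35%), and 5 higher and 3 lower in conceptus minus PBMC (44% and 40.9%). With such shares called among all genes, the counts alone did not set the receptors apart. The N libraries of different tissues may come from the same cows, which the fit could not take into account.

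OXTR had a median of 3.99 CPM in N endometrium (range 2.23 to 85.3 CPM), 0.176 CPM in CL (0 to 3.15 CPM), 0 CPM in conceptus (0 to 2.37 CPM) and 0 CPM in PBMC (0 to 0.407 CPM). OXTR passed the filter on low counts through endometrium, where it was high. Its N median was 67 counts there, against 3 in CL and 0 in conceptus and PBMC, so its calls over the other tissues were partly set by the filter. The endometrium stood above the CL by 4.89 ± 1.01 (log2 fold change ± SE, adjusted p = 8.45e-05). The 3 N endometria rich in smooth muscle genes had 15.3 to 85.3 CPM and the other 6 had 2.23 to 8.53 CPM. The value of this contrast without those 3 libraries is not given here. CL and conceptus did not differ beyond their spread (−0.15 ± 0.98, adjusted p = 0.890). The calls of CL over PBMC (2.91 ± 1.27, adjusted p = 0.0369) and of conceptus over PBMC (3.06 ± 1.28, adjusted p = 0.0269) were lost without 1 library, at 1.42 (adjusted p = 0.329) without CL N S124 and 1.09 (adjusted p = 0.481) without conceptus N S50.

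ESR1, the main uterine oestrogen receptor, had medians of 320.2 CPM in endometrium (116.7 to 461.3 CPM), 56 CPM in CL (35.1 to 75.4 CPM), 0.228 CPM in conceptus (0 to 20.8 CPM) and 4.45 CPM in PBMC (2.76 to 8.94 CPM). The endometrium was above the CL by 2.19 ± 0.60 (adjusted p = 0.00211), and the ranges of the 2 tissues did not overlap. Conceptus and PBMC differed by 0.11 ± 0.61 (adjusted p = 0.873), a value whose sign turned under other scalings, and the conceptus was lower (−1.51, adjusted p = 0.00669) without conceptus N S50. ESR2 had medians of 27 CPM in endometrium (2.87 to 92.6 CPM), 1.52 CPM in CL (0.583 to 5.30 CPM), 0.809 CPM in PBMC (0.204 to 1.44 CPM) and 0.137 CPM in conceptus (0.0449 to 0.464 CPM). Each step down that order was called, but the last, conceptus minus PBMC (−1.21 ± 0.55, adjusted p = 0.0407), was lost in 9 of 36 fits that left out 1 library.

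PGR, the nuclear progesterone receptor, was highest in endometrium and lowest in PBMC. Its medians were 25.7 CPM in endometrium (18.5 to 38.9 CPM), 2.96 CPM in CL (2.08 to 4.86 CPM) and 0.581 CPM in conceptus (0.0817 to 3.20 CPM), and all 9 N PBMC libraries were at 0 counts. The endometrium was higher than the CL by 2.78 ± 0.40 (adjusted p = 1.06e-06) and than the conceptus by 4.07 ± 0.43 (adjusted p = 1.14e-09). Set against a floor of 3 counts over the 9 PBMC libraries (0.025 CPM), mean PGR was at least 1100-fold higher in endometrium and 32.8-fold higher in conceptus.

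The 2 membrane-linked progesterone receptors were present in every tissue. PGRMC1 had medians of 336.4 CPM in CL (245.3 to 453.6 CPM), 165.6 CPM in conceptus (83.9 to 208.3 CPM), 161.6 CPM in endometrium (at most 228.0 CPM) and 27.6 CPM in PBMC (14.1 to 32.9 CPM). Endometrium minus CL was −1.42 ± 0.16 (adjusted p = 2.94e-09). PGRMC2 had medians of 100.3 CPM in CL (86 to 112.6 CPM), 60.3 CPM in conceptus (37.7 to 78.4 CPM), 78.4 CPM in endometrium (63.8 to 90.1 CPM) and 39.7 CPM in PBMC (35.3 to 44.8 CPM). Endometrium minus conceptus was −0.97 ± 0.16 for PGRMC1 and −0.62 ± 0.08 for PGRMC2 with trimmed mean scaling, but 0.07 (adjusted p = 0.660) and 0.43 (adjusted p = 7.81e-05) when library totals alone were used, a change of scale that moved the median of all genes in that comparison to 1.64, against 0.60. The direction of both genes between endometrium and conceptus therefore depended on the scaling.

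PTGFR, the receptor of the luteolytic prostaglandin, had a median of 2216 CPM in N CL (1730 to 3212 CPM). It had 0.686 CPM in endometrium (0 to 34.3 CPM), 2.90 CPM in conceptus (0.404 to 4.56 CPM) and 0 counts in all 9 N PBMC libraries. Endometrium minus CL was −8.61 ± 1.02 (adjusted p = 4.04e-08), and −12.6 without the endometrial libraries rich in smooth muscle genes (55.4% of genes called in that fit), and the lowest CL stood far above the highest endometrium. Mean PTGFR in CL was at least 90600-fold higher than the floor of the 9 PBMC libraries. Endometrium and conceptus were not separated over all libraries (0.44 ± 0.77, adjusted p = 0.591), but endometrium minus conceptus was −3.57 (adjusted p = 1.08e-06) without those libraries, where 83.1% of genes were called.

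The receptors of prostaglandin E2 were spread over other tissues. PTGER4 had medians of 104.4 CPM in PBMC (70.4 to 174.3 CPM), 9.04 CPM in endometrium (5.17 to 13.4 CPM), 5.06 CPM in CL (3.04 to 9.51 CPM) and 0.232 CPM in conceptus (0 to 0.539 CPM). Endometrium minus PBMC was −3.81 ± 0.29 (adjusted p = 2.12e-14) with no overlap, whereas endometrium and CL did not differ beyond their spread (0.39 ± 0.26, adjusted p = 0.201). PTGER2 had medians of 6.90 CPM in endometrium (1.51 to 8.62 CPM), 4.61 CPM in PBMC (1.76 to 7.70 CPM), 2.03 CPM in CL (1.04 to 2.82 CPM) and 0.0456 CPM in conceptus (0 to 0.696 CPM). Endometrium and PBMC were not separated (0.18 ± 0.42, adjusted p = 0.704), and the call of endometrium over CL (1.23 ± 0.43, adjusted p = 0.0139) was lost without the smooth muscle-rich libraries (0.89, adjusted p = 0.111). PTGER3 had medians of 2.53 CPM in endometrium (0.340 to 127.8 CPM), 3.07 CPM in CL (1.65 to 15.3 CPM), 0.101 CPM in conceptus (0 to 0.332 CPM) and 0.0683 CPM in PBMC (0 to 0.361 CPM). Its call of endometrium over CL (2.02 ± 0.78, adjusted p = 0.0254) turned to −1.83 (adjusted p = 0.0122) without those libraries, and to 0.84 (adjusted p = 0.314) without endometrium N S81 alone.

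**Figure D1:**
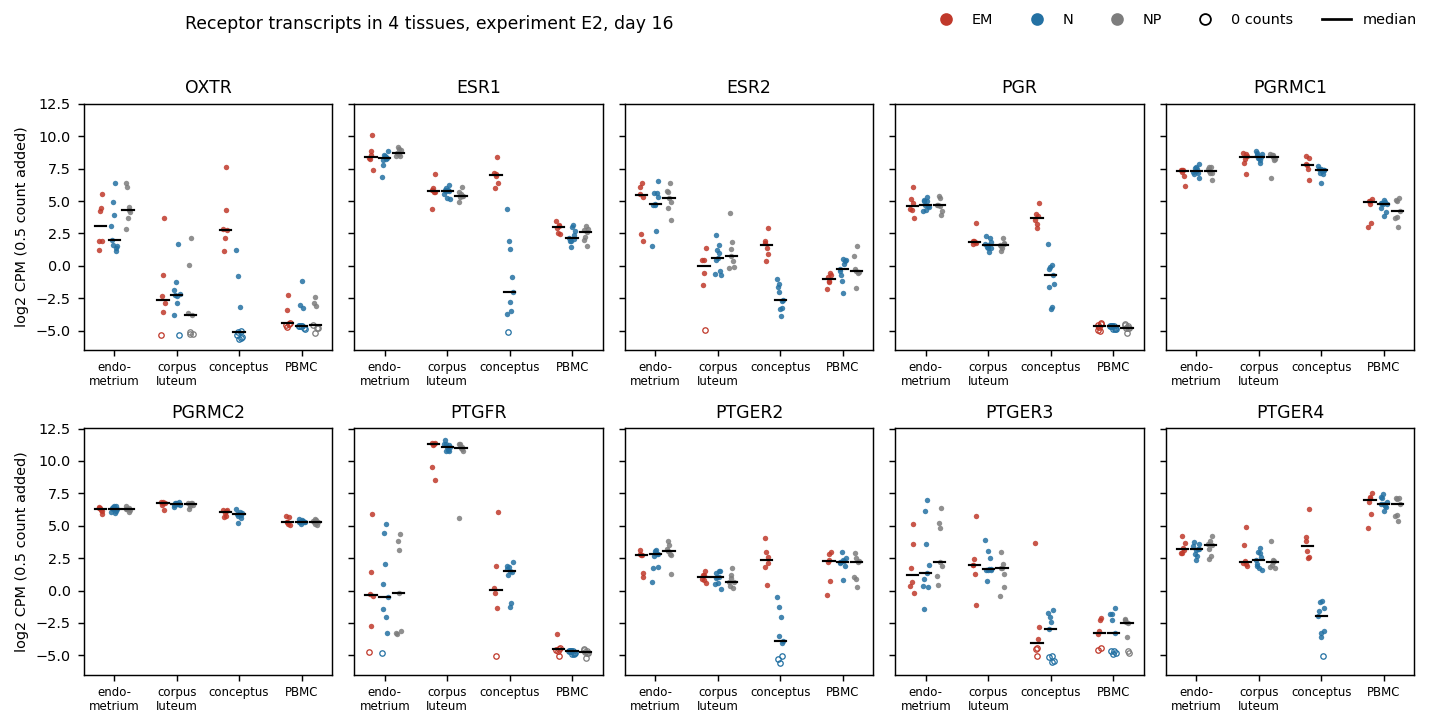
Log2 CPM (with 0.5 count added) of the 10 receptors in every E2 library, 1 panel a gene, with EM, N and NP libraries from left to right within each tissue; bars mark group medians and open symbols libraries with 0 counts. PTGFR is at 1730 CPM or more in every N corpus luteum and at 0 counts in all 9 N PBMC libraries, and PTGER4 is highest in PBMC.

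Levels of different genes can be compared per length only in E1, whose tables give gene lengths. In N endometrium the median CPM per kilobase was 121.3 for PGRMC1, 63.5 for PGRMC2, 22.7 for ESR1, 17.4 for PGR, 5.18 for PTGER4, 2.22 for OXTR, 2.03 for ESR2, 1.09 for PTGER2, 0.578 for PTGER3 and 0.0310 for PTGFR. In N PBMC the same measure was 55.7 for PGRMC1, 18.4 for PGRMC2 and 13.5 for PTGER4, and under 0.1 for each other member. The genes lie, on the UMD3.1 build used by the E1 tables, on chromosomes 22 (OXTR, 17817626 to 17827292), 9 (ESR1, 89969586 to 90255801), 15 (PGR, 8104485 to 8222755) and X (PGRMC1, 3468827 to 3477212). PTGFR (66382018 to 66445670) and PTGER3 (74488314 to 74530201) share chromosome 3. ESR2 (76707922 to 76757370) and PTGER2 (11773706 to 11786080) share chromosome 10, and PGRMC2 (29872406 to 29890867) and PTGER4 (33762479 to 33774648) lie on chromosomes 17 and 20.

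Within the endometrium, no receptor was called between any pair of groups in either experiment. All 10 were tested in each of the 6 comparisons. The share of all genes called by edgeR was 1.38% for EM against N, 2.52% for N against NP and 0.0426% for EM against NP in E1, and 0%, 1.41% and 0.247% in E2. These shares depended on single libraries: for EM against N in E1 195 genes were called, but 17 without EM S16 and 371 without N S23, and for EM against NP in E2 47 were called, but 199 without EM S80 and 0 without NP S66, NP S68 or NP S69. At an unadjusted p under 0.05, 2 members passed in E1 for N against NP, 2 for EM against NP, and 0 in the other 4 comparisons. DESeq2 also called 0 members in each of the 6. The interferon tau responsive genes gave calls in the same libraries: 5 of 7 tested were higher in N than in NP in E1 and 6 of 8 in E2, among them ISG15 and MX1.

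OXTR varied more between libraries of a group than between groups. In N endometrium it had a lowest, median and highest level of 0.828, 5.04 and 92.7 CPM in E1, against 4.12, 5.97 and 93.2 CPM in NP. In E2 the levels were 2.23, 3.99 and 85.3 CPM in N, against 7.31, 20.2 and 82.3 CPM in NP. The ranges overlapped in both experiments, but 4 of 8 N libraries of E1 and 5 of 9 of E2 lay below the lowest NP library, and 1 N library of E2 lay above the highest. N minus NP was −0.77 ± 1.09 in E1 (95% interval −2.91 to 1.38, adjusted p = 0.787) and −0.73 ± 0.81 in E2 (−2.32 to 0.86, adjusted p = 0.881). No difference of this contrast between the experiments was called (0.00 ± 1.42, with 0% of genes called by edgeR).

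In EM endometrium OXTR had 2.28, 2.73, 0.654 and 39.7 CPM in E1, with EM S17 alone above the N median. In E2 its lowest, median and highest levels were 2.30, 11.3 and 46.8 CPM in EM. EM minus N was −0.57 ± 1.34 in E1 (adjusted p = 0.921) and −0.27 ± 0.86 in E2 (adjusted p = 0.981), and EM minus NP was −1.34 ± 1.41 (adjusted p = 0.803) and −1.0 ± 0.92 (adjusted p = 0.851). Single libraries set the size of these values: EM minus N ranged from −3.24 without EM S17 to 1.19 without N S23 in E1, and from −0.96 without EM S80 to 0.84 without N S81 in E2.

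High PTGFR and PTGER3 were found in endometrial libraries rich in smooth muscle genes. In the 8 E2 libraries with over 2000 CPM of DES, MYH11, ACTA2 and ACTG2 (2157 to 22340 CPM), PTGFR had 2.70 to 61 CPM, PTGER3 12 to 127.8 CPM and OXTR 15.3 to 85.3 CPM. In the other 14 (149 to 1640 CPM), PTGFR had 0 to 1.37 CPM, PTGER3 0.340 to 4.46 CPM and OXTR 2.23 to 82.3 CPM. PTGFR and PTGER3 thus did not overlap between these sets, and OXTR did. The 2000 CPM line was chosen after seeing the data, and how many of all genes separated in this way was not counted. In E1, where the sum held 3 of the 4 genes, PTGER3 did not overlap either (1.86 to 15.4 CPM in 4 libraries, 0.186 to 1.46 CPM in 15). There PTGFR overlapped slightly (0.969 to 22.9 CPM and 0 to 1.22 CPM) and OXTR widely (6.54 to 93.2 CPM and 0.654 to 55.1 CPM). These libraries belonged to all 3 groups, namely EM S17, N S21, N S23 and NP S30 in E1, and EM S77, EM S80, N S78, N S79, N S81, NP S66, NP S68 and NP S69 in E2. Whether the receptor RNA came from muscle cells was not tested.

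Among the libraries with at most 2000 CPM of these genes, a subset defined after seeing the data, OXTR had 0.654 to 2.73 CPM in EM (n = 3), 0.828 to 11.8 CPM in N (n = 6) and 4.12 to 55.1 CPM in NP (n = 6) in E1. In E2 it had 2.30 to 18.8 CPM in EM (n = 4), 2.23 to 8.53 CPM in N (n = 6) and 7.31 to 82.3 CPM in NP (n = 4). Within these libraries the highest values came from NP S31 in E1 and NP S65 in E2, whereas over all E1 libraries the highest was NP S30 (93.2 CPM), which was rich in smooth muscle genes. NP S31 differed in its markers too. It held 5180 CPM of epithelial and 4841 CPM of stroma and myometrium genes, against at most 1288 and at least 21340 CPM in the other E1 NP libraries. Refitted without the smooth muscle-rich libraries, N minus NP was −1.98 ± 0.90 in E1 (unadjusted p = 0.0431, adjusted p = 0.268) and −2.82 ± 0.73 in E2 (unadjusted p = 0.0018, adjusted p = 0.0716). EM minus NP was −3.35 ± 1.29 (adjusted p = 0.567) and −1.99 ± 0.82 (adjusted p = 0.412). None of these values passed the adjusted threshold in edgeR, where 2.42% of genes in E1 and 2.05% in E2 were called for N against NP, and 0% and 0.897% for EM against NP.

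**Figure D2:**
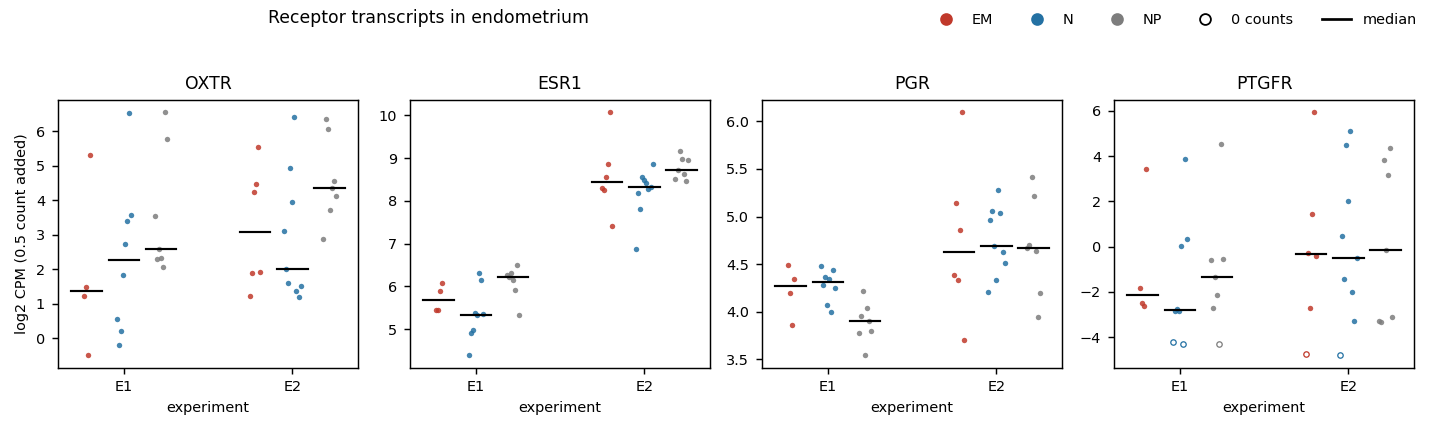
Log2 CPM (with 0.5 count added) of OXTR, ESR1, PGR and PTGFR in each endometrial library of E1 and E2, with EM, N and NP from left to right; bars mark group medians and open symbols libraries with 0 counts. OXTR and PTGFR span far more within each group than their medians differ between groups, while PGR is narrow.

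ESR1 in N endometrium had a lowest, median and highest level of 20.9, 40.6 and 80.01 CPM in E1, against 40.6, 74 and 90.3 CPM in NP. N minus NP was −0.65 ± 0.22 (unadjusted p = 0.00963, adjusted p = 0.145), and the value was called only when N S23 was left out (−0.81, adjusted p = 0.0289). In E2 the levels were 116.7, 320.2 and 461.3 CPM in N, against 351.1, 425.5 and 574.9 CPM in NP, a log2 fold change of −0.39 ± 0.27 (adjusted p = 0.732). N medians were below NP medians in both experiments, with overlapping ranges. Without the smooth muscle-rich libraries the values were −0.75 ± 0.21 (adjusted p = 0.0825) and −0.52 ± 0.27 (adjusted p = 0.457).

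EM endometria of E1 had 43.9, 43.4, 59.7 and 68 CPM of ESR1, all within the N range. In E2 the lowest, median and highest EM levels were 170.7, 346.4 and 1073 CPM, the highest in EM S80, which also held the highest PGR. The difference EM minus N was 0.23 ± 0.26 in E1 (adjusted p = 0.785) and 0.47 ± 0.28 in E2 (adjusted p = 0.736), and the E2 value was 0.01 without EM S80. EM minus NP was −0.41 ± 0.28 in E1 and 0.08 ± 0.30 in E2 (adjusted p = 0.663 and 0.981).

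PGR lay close together across the groups, apart from EM S80 in E2. In N endometrium of E1 it had 16.0, 19.9 and 22.3 CPM (lowest, median and highest), against 11.6, 15 and 18.6 CPM in NP, and N minus NP was 0.40 ± 0.15 (unadjusted p = 0.0187, adjusted p = 0.194). In E2 the levels were 18.5, 25.7 and 38.9 CPM in N, against 15.4, 25.5 and 42.5 CPM in NP (0.18 ± 0.26, adjusted p = 0.917). EM endometria had 22.5, 18.3, 14.5 and 20.2 CPM in E1 and 13, 25 and 68.2 CPM (lowest, median and highest) in E2. For EM minus N the value was −0.11 ± 0.18 in E1 and 0.09 ± 0.27 in E2, with 95% intervals of −0.47 to 0.24 and −0.44 to 0.63, far narrower than those of OXTR.

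PTGFR was near the detection limit in most endometria. It had 0.228, 0.119, 0.109 and 10.8 CPM in the EM libraries of E1, against 0, 0.0967 and 14.7 CPM (lowest, median and highest) in N and 0, 0.338 and 22.9 CPM in NP. In E2 the levels were 0, 0.764 and 61 CPM in EM endometria, 0, 0.686 and 34.3 CPM in N endometria, and 0.0659, 0.861 and 20.6 CPM in NP. In each experiment the top library of each group was one rich in smooth muscle genes. No difference could be seen at this spread: EM minus N was 0.29 ± 1.68 in E1 and 0.46 ± 1.47 in E2, and the E2 value was −3.19 without EM S80 (adjusted p = 0.727).

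**Figure D3:**
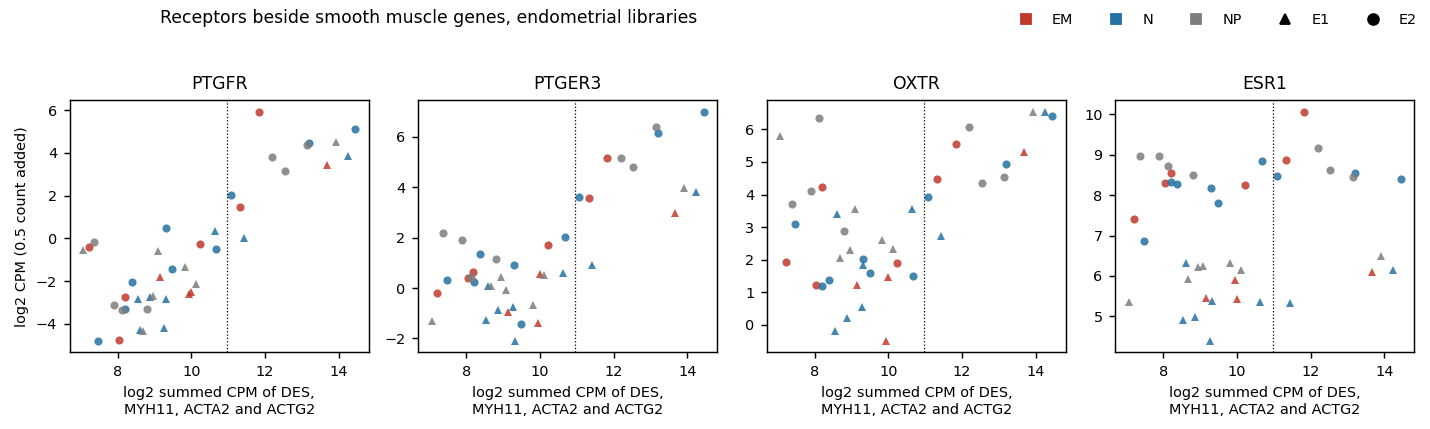
Log2 CPM (with 0.5 count added) of PTGFR, PTGER3, OXTR and ESR1 in each endometrial library against the log2 summed CPM of DES, MYH11, ACTA2 and ACTG2; triangles are E1, circles E2, colours EM, N and NP, and the dotted line marks 2000 CPM. For E1 the sum holds 3 of these 4 genes. Right of the line PTGFR is 0.969 CPM or more and PTGER3 1.86 CPM or more, and left of it they stay at or under 1.37 and 4.46 CPM. Such separation was not counted over all genes.

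The other members of the set showed small or uneven differences in endometrium. ESR2 ranged from 5.09 to 20.7 CPM in EM, 0.663 to 11.4 CPM in N and 0.645 to 7.93 CPM in NP of E1, where EM minus N was 1.25 ± 0.60 (adjusted p = 0.380) and EM minus NP 1.58 ± 0.62 (unadjusted p = 0.0204, adjusted p = 0.445); in E2 the same contrasts were 0.17 ± 0.60 and 0.05 ± 0.64. PTGER4 was 9.48 to 16.4 CPM in EM and 12.8 to 28.4 CPM in NP of E1 (−0.60 ± 0.26, unadjusted p = 0.0307, adjusted p = 0.490), against 0.04 ± 0.31 in E2. PGRMC1 and PGRMC2 moved by at most 0.32 on the log2 scale in any of the 6 comparisons, with SEs of 0.08 to 0.18. PTGER2 moved by at most 0.52. For PTGER3 the largest value was that of EM minus N in E2 (−1.65 ± 1.28, adjusted p = 0.831), which ranged from −2.94 without EM S80 to −0.44 without N S81, and N minus NP in E1 (−0.16 ± 0.99) ranged from −1.77 without N S23 to 1.51 without NP S30. Without the smooth muscle-rich libraries PTGER3 lay between −0.62 and 0.08 in the 6 comparisons, none called.

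Of the gene lists around these receptors, only 2 held a call in endometrium. GREB1, an oestrogen-induced gene, was higher in EM than in N in E1 (1.91, adjusted p = 0.0115), the 1 call among 13 tested uterine steroid responsive genes. Of the interferon tau responsive genes, STAT2 (−1.54) was lower in EM than in N in E1, and 5 of 8 were higher in EM than in NP in E2. Beside these calls, 1.38% of all genes were called for EM against N in E1 and 0.247% for EM against NP in E2. When the 2 groups alone were fitted, 25 genes were called in the first comparison. In the second 0 were called, so those 5 calls were lost. No other prostanoid receptor, steroid receptor, cofactor, transducer or gene of prostaglandin and oxytocin supply was called in any of the 6 endometrial comparisons. ISG15, which responds to interferon, was uneven among EM endometria. In E2 EM S77 and EM S80 had 10.4 and 5.04 CPM, within the NP range of 3.02 to 12.9 CPM, while the other EM libraries had 410 to 1845 CPM and N libraries up to 2825 CPM. Both of those libraries were rich in smooth muscle genes.

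In the CL, where PTGFR receives the luteolytic signal, its levels overlapped between all 3 groups. PTGFR had a lowest, median and highest level of 376.8, 2491 and 2650 CPM in EM corpora lutea, 1730, 2216 and 3212 CPM in N corpora lutea, and 47.7, 2058 and 2493 CPM in NP. EM minus N was −0.20 ± 0.50 (95% interval −1.18 to 0.77, adjusted p = 0.950), N minus NP 0.24 ± 0.48 (−0.69 to 1.18) and EM minus NP 0.04 ± 0.52 (−0.99 to 1.06). Of the 9 members tested, 0 were called in any comparison (2, 0 and 3 at an unadjusted p under 0.05 for EM against N, N against NP and EM against NP, and 0 by DESeq2), and 0.00568%, 0% and 0% of 17597 genes were called.

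The lowest PTGFR values came from the libraries poor in luteal genes, EM S121, EM S112 and NP S109. As a percent of the summed luteal genes PTGFR was 5.19% in EM S112, 6.69% in EM S121 and 11.5% in NP S109, against 4.09 to 9.56% in the other 19 libraries. Without these 3 libraries, a choice made after seeing the data, PTGFR had 2393 to 2650 CPM in 4 EM, 1730 to 3212 CPM in 9 N and 1788 to 2493 CPM in 6 NP corpora lutea. The values were then 0.22 ± 0.16 for EM minus N, 0.03 ± 0.14 for N minus NP and 0.25 ± 0.17 for EM minus NP, none called by edgeR (0.0056%, 0% and 0% of genes called).

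**Figure D4:**
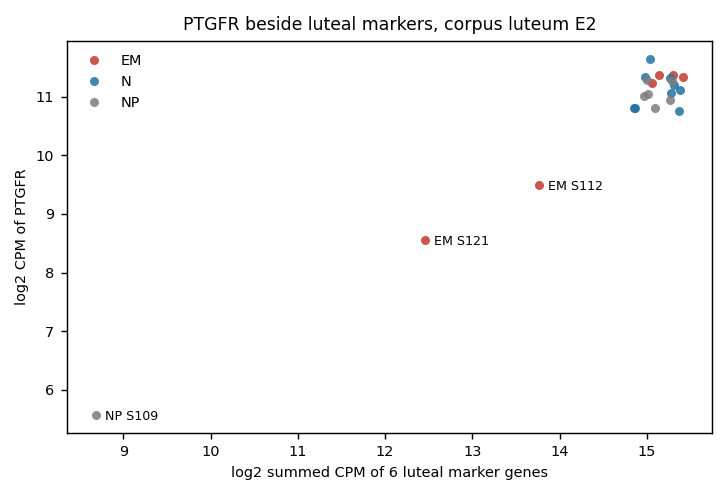
Log2 CPM of PTGFR in each corpus luteum of E2 against the log2 summed CPM of 6 luteal marker genes, with EM, N and NP libraries in separate colours. The libraries EM S112, EM S121 and NP S109 lie low on both axes, and the other 19 lie together between 1730 and 3212 CPM of PTGFR.

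The same libraries carried the apparent shifts of other members in CL. EM S121 had 9.72 CPM of PGR, 53.3 CPM of PTGER3, 30.5 CPM of PTGER4, 133 CPM of ESR1 and 13.2 CPM of OXTR, each the highest of the EM corpora lutea, together with 17530 CPM of smooth muscle genes and 408 CPM of endometrial epithelial genes. Over all libraries EM minus N was 0.60 for PGR (unadjusted p = 0.0341), 0.94 for PTGER4 (unadjusted p = 0.0377) and 1.31 for PTGER3, and 0.22, −0.33 and −0.67 without the 3 libraries. ESR2 had 0 to 2.52 CPM in EM and 0.879 to 17.2 CPM in NP (−1.78 ± 0.76, unadjusted p = 0.0290), but the 17.2 CPM came from NP S109, and the value was −0.76 without that library and −0.27 without the 3 libraries. OXTR was too low to be tested in CL: its medians were 0.138 CPM in EM, 0.176 CPM in N and 0.0481 CPM in NP, so that no difference was detectable at this depth. OXT, the gene for its ligand, had medians of 258.4 CPM in EM, 255.0 CPM in N and 264.4 CPM in NP corpora lutea.

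In E2 the nuclear steroid receptors, OXTR and both prostaglandin E2 receptors that raise cyclic AMP reached higher levels in EM conceptuses than in those of N. Of 9 members tested, 6 were higher in EM and 0 were lower, where 35.3% of 15642 genes were called higher and 31.8% lower. The median log2 fold change of the 9 was 3.82, against 0.07 over all genes. OXTR, ESR1, ESR2, PTGER2 and PTGER4 had N medians of 0, 5, 3, 1 and 5 counts. They passed the filter on low counts through the EM libraries, where they were high. The number called and the median of the 9 were thus partly set by the filter. In EM conceptuses 9 of the 10 members had a median of at least 10 counts, against 4 in N conceptuses. In the same libraries 6 of 7 endometrial epithelial genes and 8 of 8 leukocyte genes were called higher in EM, and 8 of 9 trophectoderm genes lower. The part of other cell types in the receptor RNA of EM conceptuses was not tested.

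OXTR had a lowest, median and highest level of 2.15, 6.95 and 199 CPM in EM conceptuses, against 0, 0 and 2.37 CPM in N, where 6 of 9 libraries had 0 counts. Its EM minus N was 6.45 ± 1.33 (adjusted p = 5.27e-04), 4.41 without EM S58 (adjusted p = 0.00476) and 8.64 without N S50. EM S58 held the 199 CPM, and also the highest PTGER4 (77.8 CPM) and the highest leukocyte sum (1262 CPM). N S50 held the 2.37 CPM, the only N value inside the EM range, along with the highest N values of ESR1 (20.8 CPM) and epithelial genes (455.2 CPM).

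ESR1 had 63.2, 130.2 and 342.1 CPM (lowest, median and highest) in EM conceptuses, against 0, 0.228 and 20.8 CPM in N. ESR2 had 1.30, 2.96 and 7.40 CPM in EM, against 0.0449, 0.137 and 0.464 CPM in N. PGR had 7.69, 13.2 and 29.2 CPM in EM, against 0.0817, 0.581 and 3.20 CPM in N. For each of these 3 nuclear receptors all 6 EM libraries were above all 9 N libraries. How many of all genes separated in this way was not counted, and 35.3% of genes were called higher in EM. The log2 fold changes were 5.23 ± 1.13 for ESR1 (adjusted p = 7.58e-04), 3.65 ± 0.49 for ESR2 (adjusted p = 1.50e-05) and 3.82 ± 0.62 for PGR (adjusted p = 6.91e-05).

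The prostaglandin E2 receptors that raise cyclic AMP behaved likewise. PTGER2 had 1.33, 5.22 and 16.8 CPM in EM, against 0, 0.0456 and 0.696 CPM in N (4.92 ± 0.85, adjusted p = 1.25e-04). PTGER4 had 5.70, 11.3 and 77.8 CPM in EM, against 0, 0.232 and 0.539 CPM in N (5.99 ± 0.73, adjusted p = 7.68e-06). Neither overlapped between the groups, a separation that was not counted over all genes. PTGER3 failed the filter on low counts and was above 0.332 CPM in only 1 conceptus, EM S49 (12.5 CPM).

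The 3 remaining members were not called. PGRMC1 had 98.9, 224.9 and 357.6 CPM in EM, against 83.9, 165.6 and 208.3 CPM in N (0.20 ± 0.24, adjusted p = 0.474; 0.50 without EM S58, adjusted p = 0.0313). PGRMC2 had 51.9, 65.7 and 75.2 CPM in EM, against 37.7, 60.3 and 78.4 CPM in N (−0.22 ± 0.16, adjusted p = 0.212). Its mean log2 CPM was higher in EM (6.005 against 5.846), opposite in direction to the fold change. CPM use library totals and the fold changes trimmed mean scaling. With library totals alone the median of all genes was 0.45, against 0.07, so the sizes for PGRMC1 and PGRMC2 depend on the scaling. PTGFR had 0, 0.982 and 66.2 CPM in EM, against 0.404, 2.90 and 4.56 CPM in N (1.82 ± 1.04, adjusted p = 0.132), and −1.51 without EM S61. EM S61 held the 66.2 CPM and also 3739 CPM of luteal genes and 31.9 CPM of OXT.

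In E1 the EM conceptuses were fewer and shallower, with totals of 106785 to 6402817 counts in EM and 6800123 to 14581706 counts in N. Of 5 members tested, 2 were called higher in EM, where 25.4% of 11211 genes were higher and 21.7% lower. PTGER4 had 18.6, 17, 35.7 and 18.7 CPM in the 4 EM conceptuses, the last 2 of these from 8 and 2 counts, against 0, 0.143 and 0.756 CPM (lowest, median and highest) in N. Its log2 fold change was 6.42 ± 0.56 (adjusted p = 1.37e-07) with no overlap, a separation that was not counted over all genes. PTGER4 had an N median of 1.5 counts and passed the filter on low counts through the EM libraries, where it was high. The number of members called was thus partly set by the filter. PGR had 2.87, 6.25, 0 and 0 CPM in EM, against 0.371, 0.892 and 1.99 CPM in N (2.27 ± 0.50, adjusted p = 0.00184), and the call was lost without EM S3 (1.14, adjusted p = 0.253). EM S3 also held 42060 CPM of 2 erythroid genes, against 81.3 to 3031 CPM in the other EM conceptuses and 2.49 to 40.2 CPM in N. The part of blood cells in its receptor RNA was not tested.

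OXTR in the E1 conceptuses had 1.57, 9.37, 0 and 9.37 CPM in EM from 6, 60, 0 and 1 counts, against 2 counts over the 8 N libraries. ESR1 had 2.09, 20.8, 0 and 9.37 CPM in EM from 8, 133, 0 and 1 counts, against 1 count over the 8 N libraries. Neither passed the filter in the fit over all libraries. Without the shallow EM S4 and EM S5, a choice made after seeing the data, only EM S2 and EM S3 stood for EM. That fit called 5 members higher, OXTR, ESR1, PGR, PTGER2 and PTGER4, where 56.4% of genes were called in either direction. OXTR, ESR1 and PTGER2, with 2, 1 and 3 counts over the 8 N libraries, entered it through the EM libraries, where they were high. In E1 the summed epithelial genes lay between 730 and 4076 CPM in EM conceptuses, against 12.5 to 86.9 CPM in N. Leukocyte genes summed to 150 to 403 CPM in EM conceptuses, against 5.85 to 14 CPM in N. The difference in EM minus N between E1 and E2 was not called for any of the 9 members tested (0.192% of all genes were), and PGR came closest (−1.82 ± 0.94, unadjusted p = 0.0621, adjusted p = 0.364).

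**Figure D5:**
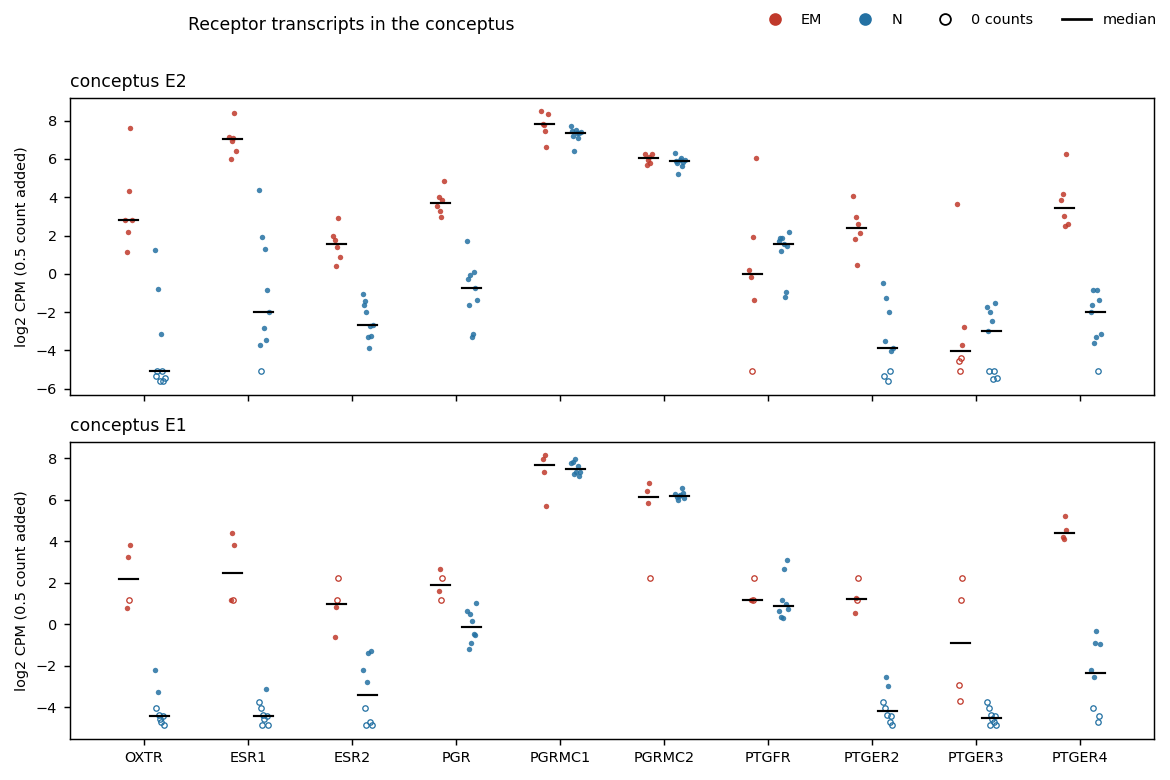
Log2 CPM (with 0.5 count added) of the receptors in each EM (left) and N (right) conceptus, E2 above and E1 below; bars mark group medians and open symbols libraries with 0 counts, which sit high in the 2 shallow EM libraries of E1. In E2 ESR1, ESR2, PGR, PTGER2 and PTGER4 lie higher in all 6 EM than in all 9 N conceptuses, and PGRMC1 and PGRMC2 overlap. Such separation was not counted over all genes.

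Genes that act with these receptors also differed between EM and N conceptuses of E2, though in both directions. Beside the list counts, 35.3% of all genes were higher and 31.8% lower, shares against which the counts are to be read. Of the other prostanoid receptors 2 of 3 tested were higher in EM, the thromboxane receptor TBXA2R (7.63 ± 0.77) and the prostaglandin E2 receptor PTGER1 (2.59 ± 0.46). Of the other steroid and neurohypophysial receptors 3 of 5 were higher, among them the glucocorticoid receptor NR3C1 (4.41 ± 0.53), and 1 was lower, the membrane progesterone receptor PAQR8 (−3.81 ± 0.71). Of the cofactors and chaperones of steroid receptors 2 of 12 were higher, FKBP5 (3.09 ± 0.33) and NRIP1 (2.37 ± 0.39), and 6 were lower, among them STIP1 (−2.27 ± 0.30) and HSP90AA1 (−1.60 ± 0.23), a median of −0.49 for the list. All 13 tested uterine steroid responsive genes were called, 9 higher and 4 lower, led by FOXO1 (3.44 ± 0.38) and SERPINA14 (7.07 ± 1.07).

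On the supply side 6 of 13 genes were higher and 5 lower in EM conceptuses, with a median of 0.29. PAM, the enzyme that amidates oxytocin (4.68 ± 0.58), HPGD, which inactivates prostaglandins (5.13 ± 0.72), and PTGS1, a cyclooxygenase (2.92 ± 0.51), were higher, and the prostaglandin transporter SLCO2A1 was lower (−4.39 ± 0.76). Of 17 signal transducers 7 were higher and 7 lower, among them the kinase subunits PRKACB (4.46 ± 0.43) and PRKCB (7.63 ± 0.81) and the phospholipase PLCB3 (−2.07 ± 0.26). The interferon tau responsive genes were the only one of the 7 lists with every tested member called one way, 8 of 8 higher in E2 with a median of 4.03, and 7 of 7 higher in E1 with a median of 4.58. In E1, where 25.4% of all genes were higher and 21.7% lower, the supply list had 4 of 11 genes higher and 5 lower, again with PAM (5.06 ± 0.30) and HPGD (5.13 ± 0.46) first by p.

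PBMC held 3 members that could be tested in E1 and 6 in E2, and none was called between EM, N and NP in either experiment. No gene at all was called by edgeR in the 6 PBMC comparisons (0%, with 278 to 758 genes at an unadjusted p under 0.05), and DESeq2 called no member. PTGER4 had 42.8, 83.9 and 130.6 CPM in the 3 EM libraries of E1, against 22.2, 38 and 94.4 CPM (lowest, median and highest) in N (0.93 ± 0.34, unadjusted p = 0.0127, adjusted p = 0.586). In E2 it had 28.7, 127.7 and 182.5 CPM in EM, against 70.4, 104.4 and 174.3 CPM in N (−0.02 ± 0.35). The groups overlapped in both experiments. ESR1 in E2 had 5.51 to 11 CPM in EM and 2.76 to 8.94 CPM in N (0.58 ± 0.24, unadjusted p = 0.0272, adjusted p = 0.999), and ESR2 had 0.254 to 0.632 CPM in EM and 0.273 to 2.82 CPM in NP (−1.17 ± 0.47, unadjusted p = 0.0207, adjusted p = 1.00).

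OXTR and PTGFR had 0 counts in all 15 PBMC libraries of E1, and PGR had 0 counts in all 22 of E2, so that these receptors were not detectable in blood at this depth in those tables. In the E1 library NP S47, which was poor in leukocyte genes, PGRMC1 (2.78 CPM), PGRMC2 (0.641 CPM) and PTGER4 (2.35 CPM) were the lowest of all PBMC libraries.

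Over the 11 mean profiles of tissue and group in E2, the 3 genes most like OXTR among 15047 were EFCAB1, RSPH1 and SPATS1 (Pearson r of 0.993 each). Those most like ESR1 were PIK3R3, AKAP1 and FSD1L (0.990 to 0.995), those most like PGR were ARHGEF28, SULF2 and MPPED2 (0.996 to 0.998), and those most like PTGFR were TMEM254, GLDN and ECHS1 (0.993 to 0.995). The 11 points share libraries within a group and follow tissue above all, so the likeness describes levels across tissues.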

How the data were processed

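Raw counts of reads per gene were deposited by the authors, 1 column a library. They were made from TruSeq Stranded mRNA libraries read as 100 bp pairs (E1, build UMD3.1 in the tables that name one) or 75 bp single ends (E2, build ARS-UCD1.2). The counting tool was not given in the sources used. Of 129 samples 127 were used, 2 with no counts tied to a group were not, and 2 columns tied to no sample were left out. In E2 28 repeated rows were dropped. In E2 endometrium the name S77 heads both an EM and an N column, with different counts, and each was used by the group of its sheet. The members and gene lists were chosen with earlier results of these data known.

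Genes were filtered with filterByExpr (minimum count 10), scaled by trimmed means (TMM), and tested within each table with edgeR 4.0.16 (quasi-likelihood, R 4.3.3), adjusting p-values over all genes tested. Each SE is the log2 fold change over the square root of F, and intervals use 1.96 SE. Tissues were compared in 1 fit of the N libraries of E2, and experiments by their interaction. CPM shown are counts over library totals. The 7 marker lists checked the tissues, and 7 pathway lists are described by counts called. From each pathway list up to 4 genes of smallest p were named, and all 10 members were named. Likeness was the Pearson correlation over 11 group means of log2 CPM, for genes averaging at least 1 CPM in a group. Alternatives were RLE factors, no filter, DESeq2 1.42.0, leaving out each library and fitting 2 groups only. Chosen after seeing the data were fits without libraries poor in luteal genes, shallow or rich in smooth muscle genes, and scaling by library totals alone. The scripts were tested on simulated data.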

Additional observations from a re-analysis of the deposited data

Results flagged for a closer look

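Each value below was separated from the rest of its group by a gap larger than Dixon's limit, over 135 groups of 4 to 10 libraries with a mean of at least 1 CPM. Chance alone sets about 1 in 20 such groups apart, and 16 were.

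In PBMC of E1, NP S47 had 2.78 CPM of PGRMC1 (76.3 to 99.9 CPM in the other NP libraries), 0.641 CPM of PGRMC2 (29.9 to 35.7 CPM) and 2.35 CPM of PTGER4 (49.3 to 76.6 CPM). In PBMC of E2, N S91 had 1.76 CPM of PTGER2, against 3.76 to 7.70 CPM in the other N libraries. In the CL, NP S109 had 108.6 CPM of PGRMC1 (292.2 to 398.4 CPM in the others), 47.7 CPM of PTGFR (1788 to 2493 CPM) and 14 CPM of PTGER4 (3.32 to 5.07 CPM), and EM S121 had 9.72 CPM of PGR (3.21 to 3.81 CPM) and 74.4 CPM of PGRMC2 (98.9 to 113.2 CPM). These are the CL libraries poor in luteal genes.

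In conceptuses of E2, EM S49 had 12.5 CPM of PTGER3 (0 to 0.115 CPM in the other EM libraries), and N S56 had 83.9 CPM of PGRMC1 (135.9 to 208.3 CPM). In endometrium of E1, EM S17 had 10.8 CPM of PTGFR (0.109 to 0.228 CPM), NP S30 had 22.9 CPM of PTGFR (0 to 0.632 CPM) and 15.4 CPM of PTGER3 (0.361 to 1.38 CPM), and NP S31 had 72.2 CPM of PGRMC2 (99.3 to 120.5 CPM). In endometrium of E2, NP S69 had 2.35 CPM of PTGER2 (6.51 to 14 CPM). EM S17, NP S30 and NP S69 were rich in smooth muscle genes.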

How the results depend on the processing

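No paired analysis was possible because the library numbers are not shared between groups, but for the name S77, and the cows behind the libraries are not given. Over 26 comparisons, the number of members called stayed within 1.5 times of the reported one in 649 of 652 fits that left out 1 library and in all but 2 other alternatives. The exceptions were the E1 conceptuses, with 6 called without the filter, 5 without the 2 shallow libraries and 1 to 4 leaving out 1 library (2 reported), and N against NP in E1 endometrium (0 to 1). Where edgeR called no member, DESeq2 called none. Every comparison of groups in endometrium, CL and PBMC, and every one between experiments, had 0 members called. Agreement there was mostly 0 against 0, which says little about how stable a call is.

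Uncalled values that turned sign did so mostly with single libraries; the cause was not tested. In E1 endometrium without 1 library, EM minus N ranged from −3.24 to 1.19 for OXTR, −0.20 to 0.009 for PGR and −3.90 to 0.70 for PTGFR. In E2 it ranged from −0.96 to 0.84 for OXTR, −0.30 to 0.23 for PGR and −3.19 to 1.55 for PTGFR. EM minus NP ranged from −4.50 to 0.094 for PTGFR in E1, and in E2 from −0.39 to 0.23 for ESR1, −0.12 to 0.41 for PGR and −2.93 to 1.54 for PTGFR. N minus NP in E2 ranged from −0.83 to 1.09 for PTGFR. In CL PTGFR ranged from −0.33 to 0.004 for EM minus N and −0.17 to 0.25 for EM minus NP. Between tissues, endometrium minus conceptus ranged from −0.62 to 0.62 for PTGFR, and conceptus minus PBMC from −1.51 to 0.29 for ESR1.

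Without endometria rich in smooth muscle genes, EM minus N in E2 was 0.83 for OXTR, −0.30 for PGR and −0.06 for PTGFR, EM minus NP was −0.50 for ESR1 and −0.14 for PGR, endometrium minus CL was −1.83 for PTGER3, and endometrium minus conceptus −3.57 for PTGFR. Without 3 CL libraries, PTGFR was 0.22 for EM minus N. DESeq2 gave 0.046 for N minus NP and 3.01 for EM minus NP of PTGFR in E1 endometrium. ESR1 in conceptus minus PBMC was −0.22 with RLE factors, −0.013 without the filter, −0.24 with DESeq2 and −0.74 with library totals alone. With totals alone, endometrium minus conceptus was 0.074 for PGRMC1 and 0.43 for PGRMC2, and PTGER4 was called in endometrium over CL (0.71). PGRMC2 in CL over conceptus, not called with trimmed means (0.08), was called with RLE factors, without the filter, with DESeq2 and with totals alone (0.27 to 0.79). Between tissues, changes of scaling moved the median of all genes by −0.88 to 1.04.

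All-gene counts from DESeq2 exceeded those of edgeR by over 1.5 times in E1 endometrium (595 against 195 for EM against N, 734 against 355 for N against NP, and 0.817% against 0.0426% of genes for EM against NP), in E2 endometrium (33 against 0, 517 against 268, and 246 against 47 for EM against NP), in CL (10, 7 and 4, against 1, 0 and 0), in PBMC (6 for E1 EM against N and 17 for E2 N against NP, against 0) and between experiments (136 and 2 against 0, and 82 against 23). Fitting 2 groups only gave 25 calls for EM against N in E1 endometrium and 0 for EM against NP in E2. Without the smooth muscle-rich endometria these counts were 63 and 171. Leaving out 1 library, the E1 endometrial counts ranged from 17 to 371 for EM against N, 251 to 802 (without NP S31) for N against NP, and 2 (without EM S16 or EM S17) to 173 (without NP S31) for EM against NP, where 6 were called over all libraries. In E2 they ranged from 171 (without NP S66) to 378 for N against NP and 0 to 199 for EM against NP. Depth limited the E1 conceptuses EM S4 and EM S5, where 1 count equals several CPM.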

Other observations

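Some EM endometria of E1 also differed in ISG15, with 2180 CPM in EM S14, 64.7 CPM in EM S15, 21.1 CPM in EM S16 and 76.7 CPM in EM S17, against 724 to 6652 CPM in N and 22.7 to 62.9 CPM in NP. OXTR in the same 4 EM libraries was 2.28, 2.73, 0.654 and 39.7 CPM. OXT was at most 0.231 CPM in every endometrial library. In CL, EM S121, low in luteal genes, had 48.8 CPM of OXT, under the EM median of 258.4 CPM, and NP S109 had 1.59 CPM, under the NP median of 264.4 CPM.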
